A study of Mus musculus with 13 samples.

Results

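The binding sites of a zinc finger mutant of the glucocorticoid receptor (GR, encoded by Nr3c1) were compared between mouse embryonic fibroblasts given the synthetic glucocorticoid dexamethasone (Dex) and fibroblasts given Dex with the bacterial cell wall component lipopolysaccharide (LPS). The sites were peaks of chromatin immunoprecipitation and sequencing (ChIP-seq). All mutant peaks were taken, without choice by position or gene. They came to 5833 of the 26052 peaks over all lists, wild type included: 53 and 60 in the 2 mutant libraries under Dex, and 5720 in the mutant list under Dex+LPS. The 5720 are the sum of 2187 peaks that the authors listed as specific to the mutant and 3533 that they listed as shared with wild type. The comparison asked which mutant binding appears only when LPS is added.

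The mutant cells carry the genotype GR Zn/Zn, and the names of the submitters' files give the substitution as C437G. Like the wild-type and GR knockout cells of the series, they were C57BL/6 fibroblasts from male embryos at day 13.5, cultured for 7 days. Every group, controls included, received 1 µM Dex in ethanol for 16 h. The Dex+LPS groups also received LPS for 3 h at 100 ng/µl, as the labels write the dose. Chromatin was fixed for 30 min with the protein crosslinker DSG and for 10 min in 1% formaldehyde, and pulled down with 1 antibody against GR. There were 2 mutant and 2 wild-type libraries under Dex, and 4 mutant, 3 wild-type and 2 knockout libraries under Dex+LPS. The deposited lists give positions and no peak heights or read counts, so the depth behind each list is unknown, and the level of the receptor in the mutant cells could not be checked. The series' design text calls the replicates biological, but nothing says which libraries share a culture or embryo, so their spread may be technical.

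GR is a ligand-activated transcription factor. A pair of zinc fingers in its DNA-binding domain reads the glucocorticoid response element (GRE), an inverted repeat bound by a receptor dimer. GR can also be recruited through other factors on DNA, and it is known for restraining inflammatory genes driven by NF-kB and AP-1. LPS acts through Toll-like receptors, which turn on NF-kB and AP-1 and, through interferon regulatory factors and STAT proteins, the interferon response.

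The 2 treatments differ in more than LPS. The Dex+LPS lists were merged over libraries, had peaks of knockout cells removed and hold only peaks of exactly 200 bp, whereas each Dex library has its own list, with peaks of 202 to 1222 bp and no such removal in its name. An effect of LPS cannot be told apart from these steps or from depth, and no test over samples between the treatments was possible. Counts of peaks and genes below therefore describe the lists. In intervals the error is counting error only (exact Clopper-Pearson, 95%).

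Some of the mutant Dex+LPS peaks fell on gene starts. The first set below was chosen because the peak itself covers letters of the NF-kB motif. Other peaks at listed starts, among them those of Fos, Irf1, Ifit2 and Timp1, cover none of the 7 motifs upstream of the start. Each is the stretch of the peak upstream of the RefSeq gene start (GRCm38.p6, the assembly of mm10), 5′ to 3′ on the gene's strand, at a gene with no mutant peak under Dex. All 5 peaks were shared with wild type. Capitals mark the NF-kB motif, which overlaps itself at Rel and Tlr2, and in Ccl20 also AGAACA (one arm of the GRE) and CATTCC (the TEAD motif read on the other strand).
Il6 (chr5:30012998-30013113, plus strand): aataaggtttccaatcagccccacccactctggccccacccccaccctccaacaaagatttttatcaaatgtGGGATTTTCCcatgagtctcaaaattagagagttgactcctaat
Tnfaip3 (chr10:19015411-19015485, minus strand): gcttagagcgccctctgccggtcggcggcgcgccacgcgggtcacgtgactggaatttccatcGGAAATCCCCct
Rel (chr11:23770970-23771167, minus strand): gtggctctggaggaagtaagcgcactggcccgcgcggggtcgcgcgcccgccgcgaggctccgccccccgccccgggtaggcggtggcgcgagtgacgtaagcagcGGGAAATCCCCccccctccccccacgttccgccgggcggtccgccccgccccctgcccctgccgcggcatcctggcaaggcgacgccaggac
Tlr2 (chr3:83841637-83841836, minus strand): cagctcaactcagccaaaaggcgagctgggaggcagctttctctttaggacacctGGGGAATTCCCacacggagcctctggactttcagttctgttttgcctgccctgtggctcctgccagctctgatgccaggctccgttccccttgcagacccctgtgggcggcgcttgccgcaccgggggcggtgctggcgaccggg
Ccl20 (chr1:83116540-83116739, plus strand): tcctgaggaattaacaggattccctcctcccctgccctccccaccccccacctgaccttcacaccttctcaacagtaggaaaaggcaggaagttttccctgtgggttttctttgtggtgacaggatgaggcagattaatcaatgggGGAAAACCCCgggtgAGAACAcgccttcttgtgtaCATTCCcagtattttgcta

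The second set shows the 250 bases before the start of genes that interferons are known to turn on, with a mutant Dex+LPS peak on or beside the start, and was chosen for its motifs. The same stretches of Cmpk2, Ifih1 and Irf7, with a mutant Dex+LPS peak 108, 553 and 24 bp away, hold none of the 7. Capitals mark the interferon-stimulated response element (ISRE; GAAA, any 2 bases, GAAA) and TTCNNNGAA (the gamma-activated site, GAS, of STAT dimers), each searched on both strands. In Gbp7 a shared peak covers the GAS letters and ends just before the ISRE letters; the authors' annotation assigned it to Gbp2b, whose listed span includes Gbp7. In Gbp3 the ISRE letters match at overlapping positions, and a mutant-specific peak lies 10 bp past the printed stretch. In Icam1, an adhesion molecule gene, the GAS letters lie at the edge of a mutant-specific peak over the start.
Gbp7 (chr3:142530086-142530335, plus strand): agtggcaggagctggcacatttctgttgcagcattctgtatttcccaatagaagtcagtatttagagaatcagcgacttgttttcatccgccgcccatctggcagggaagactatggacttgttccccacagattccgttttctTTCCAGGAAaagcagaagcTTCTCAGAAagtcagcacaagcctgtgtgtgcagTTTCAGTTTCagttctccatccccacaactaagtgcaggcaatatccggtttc
Gbp3 (chr3:142559794-142560043, plus strand): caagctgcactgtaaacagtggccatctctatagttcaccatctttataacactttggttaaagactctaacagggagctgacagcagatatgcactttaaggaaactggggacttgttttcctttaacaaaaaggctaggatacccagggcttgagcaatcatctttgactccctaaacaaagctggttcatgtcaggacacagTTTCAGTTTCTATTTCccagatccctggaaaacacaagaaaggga
Icam1 (chr9:21015690-21015939, plus strand): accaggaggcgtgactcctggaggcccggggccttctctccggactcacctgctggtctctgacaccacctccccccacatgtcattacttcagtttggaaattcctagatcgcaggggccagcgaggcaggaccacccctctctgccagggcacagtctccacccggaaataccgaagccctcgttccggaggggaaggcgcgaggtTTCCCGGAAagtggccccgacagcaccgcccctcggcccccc

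The last stretch belongs to the contrast. It is the only gene start that, in the authors' annotation, a mutant Dex peak overlapped in both libraries, at Dynll1, a dynein light chain gene, and its neighbour Gm13830. The Dex site spans chr5:115300916-115301226. None of the 7 motifs searched was found in the printed stretch, and the nearest mutant Dex+LPS peak lay 191 kb from the site.
Dynll1 (chr5:115300991-115301240, minus strand): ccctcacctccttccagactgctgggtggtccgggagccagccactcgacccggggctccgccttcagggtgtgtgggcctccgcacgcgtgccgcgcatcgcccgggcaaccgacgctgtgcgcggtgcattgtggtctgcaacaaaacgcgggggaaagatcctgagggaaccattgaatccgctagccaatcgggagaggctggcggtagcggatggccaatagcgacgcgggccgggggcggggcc

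Under Dex alone the mutant had few sites, and most of these were also sites of wild-type cells. The 113 peaks joined into 82 sites, of which 31 were found in both mutant libraries, 22 only in library 1 and 29 only in library 2. Of the 31 recurrent sites, 26 were also in a wild-type Dex library, and 21 in both. The 5 exceptions lay at Gm20063, 4933412E24Rik, Grid1 (a glutamate receptor subunit), Pcdh17 (a protocadherin) and Dtna (dystrobrevin alpha). Of the 51 sites in 1 mutant library, 30 were in wild-type Dex. Peaks of library 2 seen in both libraries had a median width of 321 bp, against 214 bp for those not seen in library 1, while in library 1 the medians were 337 and 383 bp.

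Chromosome Y held 13 of the 82 sites, 8 of them recurrent. Of these, 6 lay between chrY:141696 and chrY:261574 and were assigned to Zfy1, a zinc finger gene, and the others to Gm21379 and Gm20857. In the mutant Dex libraries chromosome Y took 10 of 53 (18.9%) and 11 of 60 peaks (18.3%). In the wild-type Dex libraries it took 12 of 412 (2.91%) and 11 of 854 (1.29%). The counts were thus alike, and the shares differ with the length of the lists. The mutant Dex+LPS list had none of its 5720 peaks there. The next cluster was at the predicted gene Gm5458 on chromosome 14, with 3 peaks in each library from chr14:19415727 to chr14:19418911.

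Recurrent Dex sites were otherwise single peaks scattered over genes of varied roles. They were assigned to Aida, Cpeb4 (which binds RNA to control translation), Pitpnc1 (a lipid transfer protein), Nemf (ribosome quality control), Fzd8 (a Wnt receptor), Cst3 (cystatin C), Scn3b (a sodium channel subunit), Vmn2r-ps159, D5Ertd579e, 4930517M08Rik, 2700054A10Rik and Gm16551. A pair of them were assigned to immune genes. Trim30a, a regulator of Toll-like receptor signalling, had a site inside the gene (chr7:104427821-104428085). The site assigned to Casp1, the inflammasome protease (chr9:5116960-5117331), was distant, at -181371 bp from the gene start. Both sites were also in wild-type Dex cells. Under Dex+LPS the nearest mutant peak lay 17.6 kb from the Trim30a site and 191 kb from the Casp1 site.

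Almost no mutant Dex site was found again under Dex+LPS. Of the mutant Dex peaks, 0 of 53 and 1 of 60 (1.67%, 0.0422 to 8.94%) overlapped the mutant Dex+LPS list by at least 1 bp. A count of 0 of 53 allows a share of up to 5.66%. Over both libraries it was 1 of 82 sites (1.22%, 0.0309 to 6.61%) and 0 of the 31 recurrent ones, which allows up to 9.68%. The list shared with wild type held the 1 overlap, inside Ncoa1, a coactivator that binds GR and other nuclear receptors (chr12:4417733-4417942, 59344 bp from the gene start). The Dex peak at Ncoa1 was found in library 2 only and in no wild-type Dex library. A gap of up to 1 kb added Slc39a10, a zinc transporter (gap 0.264 kb), and Grik2, a glutamate receptor subunit (gap 0.49 kb). For the 69 sites on chromosomes with a mutant Dex+LPS peak, the median gap to the nearest one was 163.5 kb. The gap was under 10 kb at 15 sites and over 100 kb at 40.

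The same overlap was larger in wild-type cells. Of the wild-type Dex peaks, 89 of 412 (21.6%) and 168 of 854 (19.7%) were found in the wild-type Dex+LPS list. The share was 0.833 ± 1.18% (SD, n = 2) for the mutant and 20.6 ± 1.36% (SD, n = 2) for wild type, and the libraries of the genotypes did not overlap. The difference of -19.8 percentage points gave p = 0.33 in an exact two-sided permutation test over the libraries, the smallest p that 2 against 2 allows. With gaps of up to 1 kb counted, the difference was -40.2 points. The lists of the 2 genotypes also differ in length, and what that adds to the difference was not tested. Wild-type Dex peaks that were also mutant Dex peaks were likewise absent: 0 of 42 and 0 of 48 were in either Dex+LPS list, which allows up to 7.14% and 6.25%. Of the wild-type Dex peaks not seen in mutant Dex, 46 of 370 and 113 of 806 were in the mutant Dex+LPS list.

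**Figure D1:**
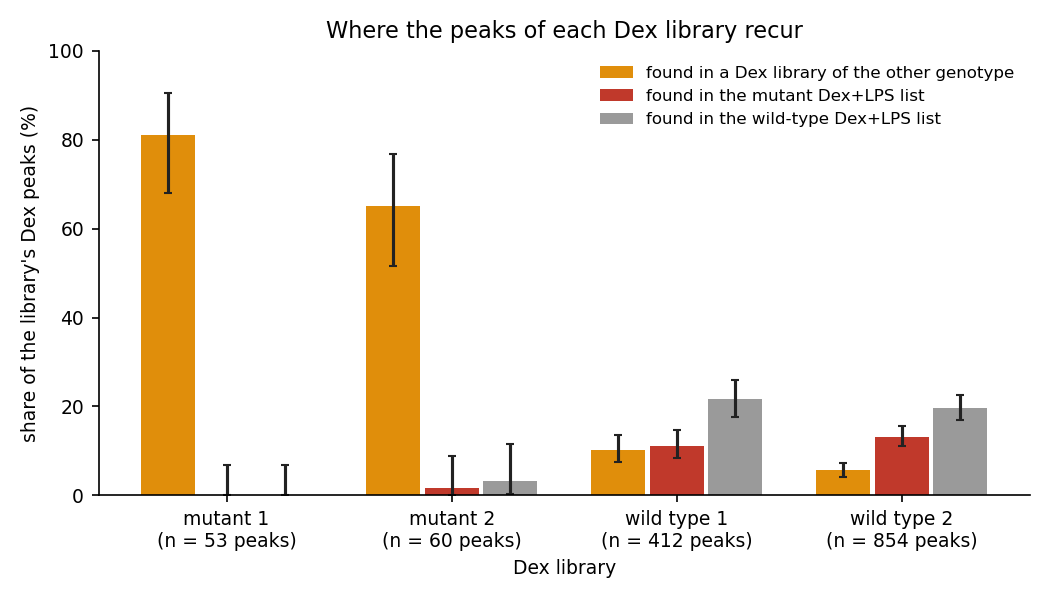
Share of the peaks of each Dex library (y axis, percent) that overlap a Dex library of the other genotype (orange), the mutant Dex+LPS list (red) or the wild-type Dex+LPS list (grey). Lines are exact 95% counting intervals. The mutant libraries reach 43 of 53 and 39 of 60 peaks in orange, and 0% and 1.67% in red.

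The mutant Dex+LPS peaks that no mutant Dex peak overlapped, called Dex+LPS-only below, numbered 5719, of which 2187 were mutant-specific and 3532 shared. A wild-type Dex peak lay at 155 of them (2.71%): 44 mutant-specific (2.01%) and 111 shared (3.14%). At 8 of them both wild-type Dex libraries had a peak. One is at Per1, a clock gene and direct GR target, where a shared peak (chr11:69096987-69097186) lay inside the gene 1832 bp from the start. Another is a mutant-specific peak downstream of Frmd8 (chr19:5850065-5850264). The rest were far from the starts of their assigned genes, from 87580 bp (Fam240b) to 513789 bp (Epm2a). Their other genes were Hs3st5, 1700046C09Rik, Atxn7l3b and Twistnb. All of the rest, like Per1, lie on chromosomes 10 to 13, and Per1 was the only listed GR target of the 8. At Per1 the mutant thus had a Dex+LPS peak at a position where wild-type cells had one under both treatments and the mutant had none under Dex. Chromosomes 10 to 14 held 38.2% of the mutant Dex+LPS peaks, 26.4% and 31.7% of the mutant Dex peaks and 68.2% and 73.9% of the wild-type Dex peaks. Without them, 6.11% and 5.38% of the wild-type Dex peaks were in the mutant Dex+LPS list, in place of 11.2% and 13.2%. The part of this imbalance in the shares above was not tested.

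Mutant peaks lay closer to genes under Dex+LPS than under Dex. Within 5 kb of the start of the assigned gene were 3 of 53 (5.66%, 1.18 to 15.7%) and 5 of 60 (8.33%, 2.76 to 18.4%) of the Dex peaks, and 1407 of 5719 (24.6%, 23.5 to 25.7%) of the Dex+LPS-only peaks. The counting intervals of the Dex libraries do not reach that of the Dex+LPS-only peaks. Peaks overlapping a gene start were 1 of 53 and 1 of 60, both at Dynll1 and Gm13830, and 199 of 5719 (3.48%), intervals that do overlap. More than 100 kb from the start were 64.2% and 58.3% of the Dex peaks and 26.4% of the Dex+LPS-only peaks. The median distance was 172 and 161 kb under Dex and 30.3 kb under Dex+LPS. Mutant-specific peaks lay nearest, with 28.9% within 5 kb and a median of 20.8 kb, against 22.0% and 37.2 kb for shared peaks. Wild-type Dex peaks also lay far from genes, with 2.43% and 2.34% within 5 kb and medians of 161 and 144 kb.

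**Figure D2:**
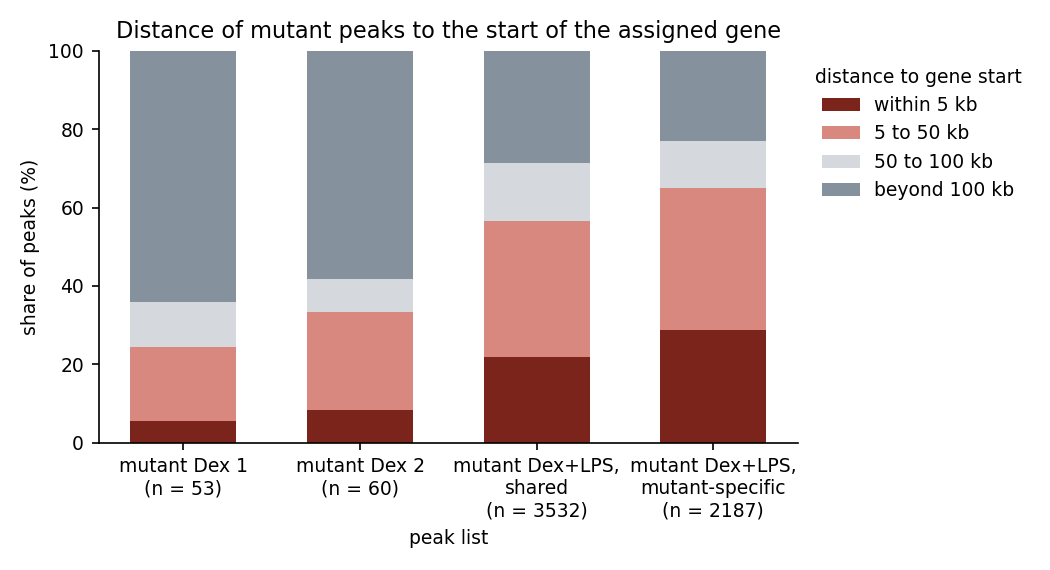
Share of mutant peaks (y axis, percent) by distance to the start of the assigned gene, for the 2 Dex libraries and the Dex+LPS-only peaks, shared and mutant-specific. The dark red band, within 5 kb, is 5.66% and 8.33% in the Dex libraries and 22.0% and 28.9% in the Dex+LPS lists.

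Dex+LPS-only peaks also came in runs. Joined across gaps of up to 10 kb they formed 4254 runs, of which 75 had 5 or more peaks and together held 538 peaks (9.41%). Among the longest, runs over immune genes covered Mx2 (12 peaks, chr16:97542678-97560502), Vcam1 (11 peaks, chr3:116106796-116138367), Tnfaip3 (9 peaks, chr10:19001343-19015485), Csf1 (9 peaks, chr3:107745635-107759977) and the host gene of the inflammatory microRNA miR-155, Mir155hg, with Mrpl39 (9 peaks, chr16:84703342-84723397). Under Dex, the most peaks at 1 gene outside chromosome Y were 3 in a library, at Gm5458 and 2700054A10Rik. Zfy1 on chromosome Y had more in each Dex library. The Dex lists hold only 53 and 60 peaks, so whether peaks cluster more under Dex+LPS was not tested.

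By gene symbol, mutant Dex peaks were assigned to 67 genes and mutant Dex+LPS peaks to 3194. Both kinds were found at 33 genes, which is 49.3% of the Dex genes and 1.03% of the Dex+LPS genes, and at overlapping positions only in Ncoa1. The median smallest gap between the Dex and Dex+LPS peaks of these genes was 41.4 kb, so a shared gene name seldom meant a shared site. Those with most Dex+LPS-only peaks were Zfp982 (15), Grik2 (12), Pcdh17 (6) and Cdh11 (5, a cadherin of mesenchymal cells). Of 3161 genes with a Dex+LPS peak only, 2064 had 1 peak and 170 had 5 or more. A mutant-specific peak without any shared peak was found at 803.

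Among the 15 genes with most Dex+LPS-only peaks were Tnc, a matrix glycoprotein (28), Fstl1, a secreted matrix protein (17), Csf1, the macrophage growth factor (14), Ifih1, the viral RNA sensor MDA5 (12), Mx2, an interferon-induced GTPase (12), and Tm4sf1, a membrane protein (12). The others were Mir3084-1 (34), Gm21119 (30), A930037H05Rik (20), 3110039I08Rik (19), Zfp709 (18), Prl2c3 (17), Zfp982 (15), Grik2 (12) and Immp2l (12). Zfp982 and Grik2 had a mutant Dex peak in 1 library each, and the other 13 had none. Long genes and genes in wide gaps collect more peaks. The counts were not adjusted for that, and Mir3084-1 and Gm21119 gathered 122 and 43 wild-type-specific peaks as well. The annotation gives the microRNA gene Mir3084-1 a span of chr19:24942235-60774397, with all 34 peaks inside it and none nearer than 310271 bp to its start. Its rank therefore says little about binding at the microRNA, and such spans also enter the shares of peaks inside genes.

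No gene of the 13 lists examined had a mutant Dex peak in either library, where 0.237% of all 21896 protein-coding genes had one. At that background a list of these sizes would seldom hold one, so the 0 says little about the lists. Under Dex+LPS, 12.6% of all protein-coding genes had a Dex+LPS-only mutant peak, 5.36% a mutant-specific one and 9.36% a shared one. Against this the listed interferon, NF-kB, matrix and GR target genes had peaks at larger shares, but so did ribosomal and housekeeping genes (11 of 19, 57.9%), which are not specific to LPS.

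**Figure D3:**
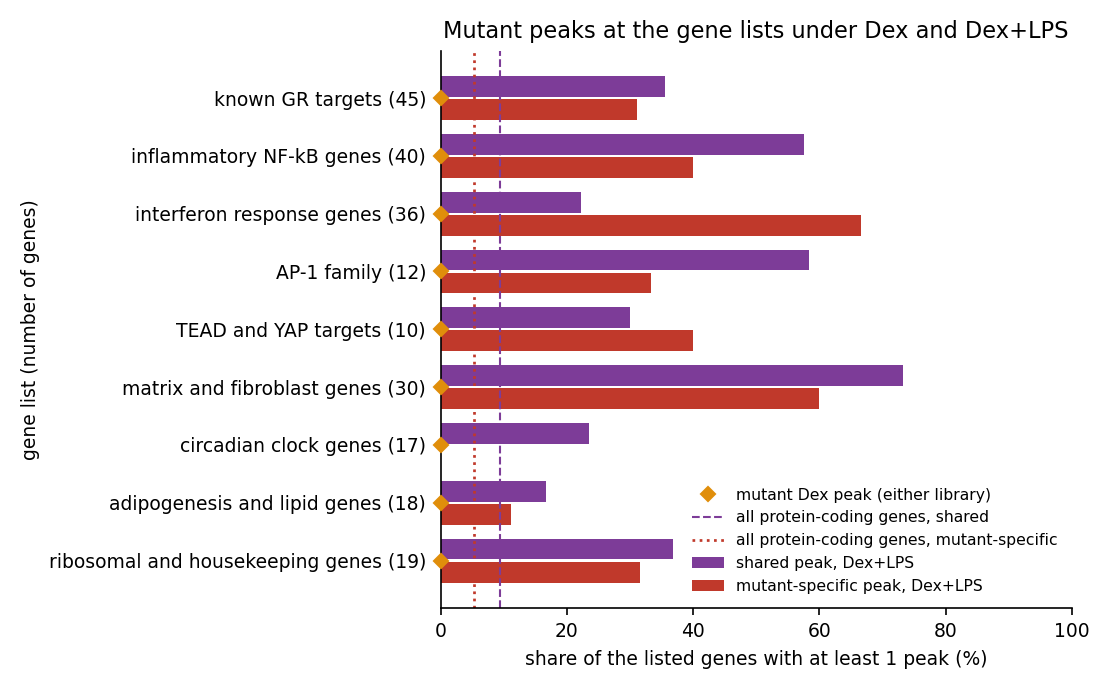
Share of the genes in each list (x axis, percent, list sizes in brackets) with at least 1 mutant peak: shared (purple) and mutant-specific (red) Dex+LPS peaks and Dex peaks (orange diamonds, all at 0). Vertical lines give the shares over all protein-coding genes, 9.36% and 5.36%. Interferon response genes have a longer red bar (66.7%) than purple bar (22.2%).

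Interferon response genes carried mutant Dex+LPS peaks that wild type lacked. Of 36 listed genes, 26 (72.2%) had a Dex+LPS-only peak, 24 (66.7%) a mutant-specific and 8 (22.2%) a shared one. None had a Dex peak of the mutant or of wild type, where 0.237% and 2.16% of all protein-coding genes had one, so this absence says little. The 97 Dex+LPS-only peaks of the listed genes were 89.7% mutant-specific, against 38.2% of all Dex+LPS-only peaks, and 72.2% lay within the gene, against 48.9%. A peak within 5 kb of the start was found at 20 of the 36, where 4.43% of all protein-coding genes had one. A wild-type-specific peak was found at 12 of the 36 (30.6% of all protein-coding genes).

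Among the sensors, Ifih1 had 11 mutant-specific peaks and 1 shared. The 8 nearest were inside the gene, 651 to 5827 bp from the start. Ddx58, which encodes the RNA sensor RIG-I, had 1 shared peak 547 bp inside the gene, and Zbp1, a sensor of Z-form nucleic acids, 1 mutant-specific peak over its start (chr2:173218778-173218977). The factors that relay the interferon signal had peaks near their starts. Mutant-specific peaks lay inside Stat2 at 102 bp and Irf7 at 122 bp, while Irf9 (233 bp) and Irf1 (258 bp) had shared ones there. None of the sensor and relay genes named here had a wild-type-specific peak.

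The antiviral effectors had the most peaks. Mx2 had 12 mutant-specific and no shared peak, all inside the gene from 6697 to 24321 bp past the start, whereas its 2 wild-type-specific peaks lay outside, at -657 and 26347 bp from the start. At Gbp2, an interferon-induced GTPase, the pattern was alike: 9 mutant-specific peaks inside the gene (3813 to 15375 bp) and 2 wild-type-specific ones outside it, at -153 and 21313 bp. Peaks at these genes therefore spread along the transcribed body and did not sit on the start. Parp14, an ADP-ribosyltransferase, had 9 mutant-specific peaks, the nearest at 386 bp, and Mx1 had 5, all inside. Mixed sets were found at Cmpk2 and Oasl2 (4 mutant-specific and 1 shared each), at Usp18, which removes the ubiquitin-like ISG15 (4 and 1), and at Ifit2 (2 and 3). Bst2, which tethers budding virus, had 4 mutant-specific peaks and Gbp3 had 3. Wild-type-specific peaks were absent at Parp14, Mx1, Cmpk2, Oasl2, Usp18, Ifit2 and Gbp3. The knockout peaks had been removed before deposition, so whether such broad sets occur without GR was not tested.

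**Figure D4:**
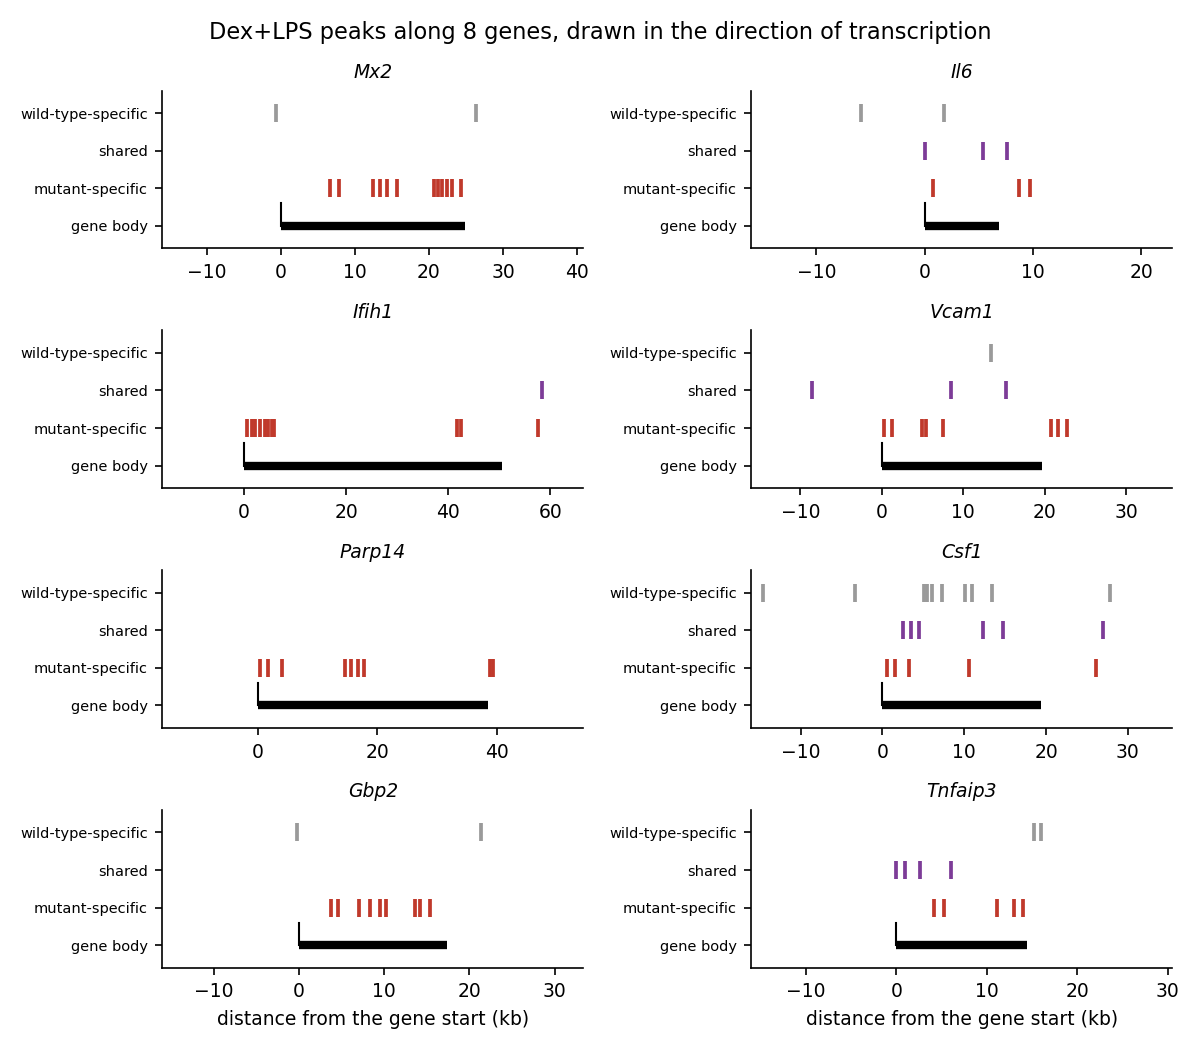
Centres of Dex+LPS peaks (ticks) from 15 kb before to 15 kb past 8 genes, by distance from the gene start (x axis, kb, direction of transcription), with the gene body as a bar. Mx2 and Gbp2 have 12 and 9 mutant-specific ticks (red) inside the gene and no shared tick (purple), while Il6, Csf1 and Tnfaip3 have both kinds.

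Inflammatory genes of the NF-kB pathway had peaks of both classes. Of 40 listed genes, 28 (70.0%) had a Dex+LPS-only peak, 23 (57.5%) a shared and 16 (40.0%) a mutant-specific one. No mutant or wild-type Dex library had a peak at any of them, where 0.237% and 2.16% of all protein-coding genes had one. At such shares, finding none in a list of this size says little. At 5 of the 40 a peak overlapped the start, against 0.845% of all protein-coding genes. Of their 103 peaks, 46.6% were mutant-specific.

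On the receptor side, Tlr2, the receptor for bacterial lipopeptides, had a shared peak 128 bp upstream of its start, over the NF-kB letters printed above. Tlr4, the LPS receptor, had no mutant peak and 5 wild-type-specific ones. Myd88, the adaptor of Toll-like receptors, had 2 mutant-specific peaks, and wild type had none there. Of the NF-kB subunit genes, Rel and Relb had a shared peak over the start and Nfkb1 one 133 bp upstream. Rela had 1 mutant-specific peak 11430 bp from its start. Nfkb2 had no assigned peak, but a shared peak (chr19:46305398-46305597) lay over the stretch upstream of its start and covers the NF-kB motif there. Regulators of the pathway had more. Tnfaip3, which encodes the ubiquitin editor A20, had 6 mutant-specific and 5 shared peaks, 1 of them over the start (chr10:19015286-19015485). Nfkbiz, an atypical member of the inhibitor protein family, had 5 mutant-specific peaks inside the gene from 16551 to 22685 bp. A shared one lay 175 bp upstream of its start. Birc3, a ubiquitin ligase, had 3 and 1, and Nfkbia, the inhibitor IκBα, 1 and 2.

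Some of the secreted products and adhesion molecules had peaks as well. Il6, the cytokine interleukin 6, had 4 mutant-specific and 3 shared peaks. A shared one overlapped its start (chr5:30012998-30013197) and a mutant-specific one lay 754 bp inside. Csf1 had 5 and 9, Lif, a cytokine of the interleukin 6 family, 0 and 5, and the chemokine Ccl20 0 and 3, with a shared peak 126 bp upstream. Tnf had 1 mutant-specific peak, 157 bp inside the gene. Other secreted products of the list had no assigned mutant peak, among them Ccl2, Ccl7, Csf2, Csf3, Cxcl2, Cxcl10, Cxcl12 and Il1b. Of the adhesion molecules, Vcam1 (8 and 4) had a mutant-specific peak 288 bp inside the gene, and Icam1 (2 and 0) 1 over its start (chr9:21015904-21016103).

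Some known GR targets had wild-type peaks under Dex. The mutant peaks assigned to listed targets were all from the much longer Dex+LPS list. Of 45 listed targets, 8 had a wild-type Dex peak (2.16% of all protein-coding genes) and 0 a mutant Dex peak (0.237%). At the latter share a list of this size would seldom hold one, so the 0 says little. A Dex+LPS-only mutant peak was found at 21 (46.7%, against 12.6% of all protein-coding genes), 14 with a mutant-specific and 16 with a shared one. Of the 8 targets with a wild-type Dex peak, Cdkn1a, Fkbp5, Pdk4 and Per1 had a Dex+LPS-only mutant peak, and Hif3a, Lpin1, Sesn1 and Zbtb16 had none. A mutant Dex peak of library 1, also in both wild-type Dex libraries, lay between Cdkn1a and Rab44 (chr17:29107416-29107722) and was assigned to Rab44, 1.113 kb from a mutant-specific Dex+LPS peak assigned to Cdkn1a; the count of 0 rests on that assignment. Cdkn1a, a cell cycle inhibitor, had 1 and 3 peaks in the wild-type Dex libraries and 4 mutant-specific and 3 shared Dex+LPS peaks, the nearest 3013 bp from the start. Fkbp5, a chaperone that restrains GR, had 2 and 1 in wild-type Dex and 1 shared peak, 123180 bp from the start. Pdk4, which shifts fuel use away from glucose, had 0 and 1 in wild-type Dex and 1 mutant-specific peak at 18112 bp.

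Other targets with many mutant peaks had no Dex peak in either genotype. Errfi1, whose product restrains the EGF receptor, had 7 mutant-specific and 2 shared peaks, 4 of them inside the gene, and Zfp36l2, which promotes messenger RNA decay, 4 and 2. The related Zfp36 had a shared peak over its start, as did Bcl6, Cebpd and Gadd45b. The metallothionein genes Mt1 and Mt2, which bind zinc, had 2 mutant-specific peaks each. Several of these genes, Tnfaip3, Nfkbia and Zfp36 among them, are also known to answer LPS.

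The AP-1 family had a Dex+LPS-only peak at 7 of 12 genes (58.3%), against 12.6% of all protein-coding genes. Each of the 7 had a shared peak and 4 also a mutant-specific one. Fos and Jun had 2 of each kind, and Fosl2 2 mutant-specific and 1 shared. A shared peak overlapped the start of Fos (chr12:85473846-85474045) and a mutant-specific one that of Fosl2 (chr5:32136444-32136643). Batf had 1 and 2, and Junb, Jund and Atf3 had 1 shared peak each. Targets and members of the TEAD and YAP pathway, which senses cell shape and density, had one at 6 of 10 genes, led by Tead1 (1 and 4), the matrix protein gene Ccn1 (3 and 0) and the receptor tyrosine kinase gene Axl (2 and 0).

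Matrix and fibroblast genes, the markers of the labelled cell type, had a Dex+LPS-only peak at 26 of 30 (86.7%), 22 with a shared and 18 with a mutant-specific one. Tnc (15 mutant-specific and 13 shared) and Fstl1 (9 and 8) led, followed by the hyaluronan receptor gene Cd44 (5 and 4), Fbn1 (fibrillin 1, 3 and 5), the collagen genes Col3a1 (2 and 5) and Col1a2 (3 and 3), and by Vim (2 and 3) and Acta2 (1 and 4). Shared peaks overlapped the starts of Fn1, which encodes fibronectin, and Timp1, an inhibitor of matrix proteases. Markers of cell types other than fibroblasts had Dex+LPS-only peaks at 3 of 15 macrophage, 5 of 10 endothelial, 3 of 10 neural and 2 of 10 epithelial genes. Each of these shares, though from a small list, also lay above the 12.6% of all protein-coding genes. Peaks give no expression level, so these counts do not measure which cells were present.

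The DNA at gene starts was compared between the classes. Promoter windows of 300 bases (250 before and 50 after each RefSeq start, 32851 windows) were searched for 7 motifs on both strands. A mutant Dex peak overlapped 5 windows, none with any of the motifs, and a Dex+LPS-only peak 529. The NF-kB motif was in 4.51% of all windows, 9.24% (5.47 to 14.4%) of the 184 windows with a mutant-specific peak, 10.1% (7.17 to 13.8%) of the 345 with a shared peak and 7.86% (6.33 to 9.63%) of the 1081 with a wild-type-specific peak. The ISRE letters were in 3.44% of all windows, 9.24% (5.47 to 14.4%) of mutant-specific, 6.38% (4.04 to 9.50%) of shared and 2.78% (1.88 to 3.94%) of wild-type-specific ones. The interval of the mutant-specific windows lies above that of the wild-type-specific windows for the ISRE and overlaps it for NF-kB. Windows of alternative or neighbouring starts can cover the same bases, and the 184 mutant-specific windows belong to 172 genes. The intervals count every window as independent and may be too narrow, and whether the ISRE intervals stay apart with such windows joined was not tested. Those of mutant-specific and shared windows overlap for both motifs. By list, the ISRE letters were in the promoters of 14 of 28 interferon genes against 3.99% of 27025 genes, and the NF-kB motif in those of 11 of 28 NF-kB genes against 5.14%. These counts include genes without a mutant peak: 9 of the 14 and 8 of the 11 had one. The lists were drawn up by pathway, so these shares describe the lists and not the peaks.

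Motifs of GR itself were searched in the same windows. The full GRE, searched as GNACA and TGTNC with any 3 bases between them, was in 0.475% of all windows, 0 of 184 mutant-specific (interval to 1.98%), 0.580% of shared and 0.925% of wild-type-specific ones. The shared windows with it were those of Txnip, a regulator of thioredoxin, and of Gm31963. The single arm AGAACA was in 19.0% of all windows but in 7.61% of mutant-specific, 11.9% of shared and 13.2% of wild-type-specific ones. The AP-1 motif TGANTCA was in 7.81%, 7.07%, 9.28% and 12.9% of these sets in the same order, TTCNNNGAA (GAS) in 8.30%, 10.3%, 8.70% and 5.55%, and GGAATG (TEAD) in 14.7%, 16.8%, 12.8% and 14.1%. Windows with peaks were richer in G and C than all windows (median 63.3% mutant-specific, 63.7% shared, 63.0% wild-type-specific, 52.7% all). Base composition alone changes how often such letters occur, and its part was not tested. These windows cover only the peaks at gene starts, and no sequence was read at the others.

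**Figure D5:**
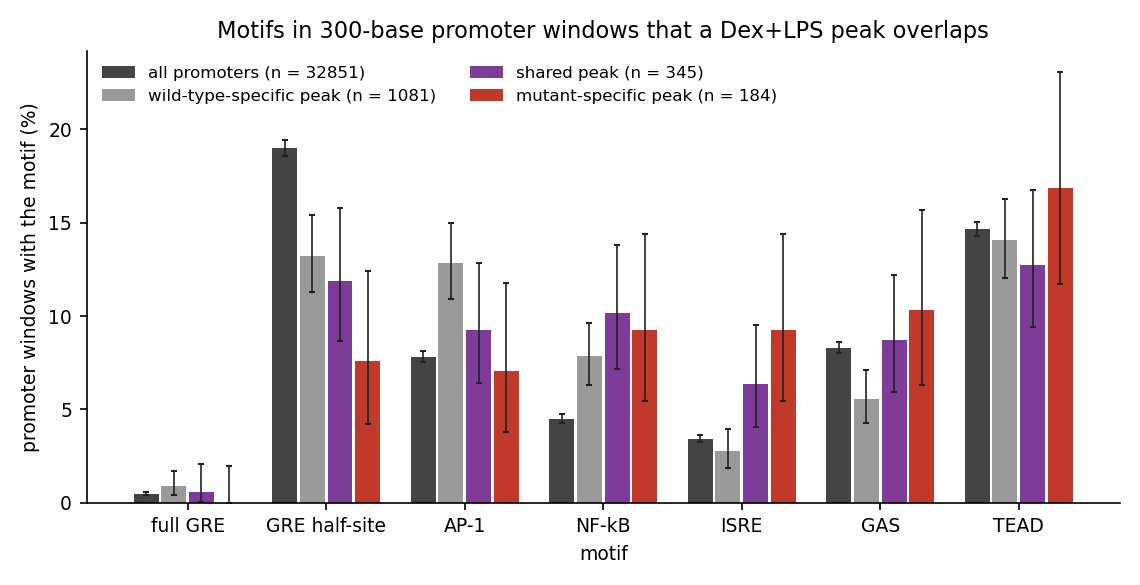
Share of promoter windows (y axis, percent) that hold each of 7 motifs (x axis), for all windows and those under a Dex+LPS peak of each class. Lines are exact 95% counting intervals. The ISRE bar is 9.24% for mutant-specific and 2.78% for wild-type-specific windows.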

How the data were processed

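GR ChIP-seq peaks were analysed as deposited by the authors. Per the submitters' processing notes, BWA 0.7.13, Picard 1.119 and MACS2 2.1.0 were used with mm10. Their settings are not given in the sources used here. Per the file headers, the deposited rows hold a peak's position, its assigned gene and its signed distance to the gene start, in bp, and no other values. Per the names in the labels, the Dex+LPS lists were merged and knockout peaks removed, and Dex lists are per library. Coordinates are 1-based.

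Peaks were matched by overlap of at least 1 bp, a calculation that gave the same answers as bedtools 2.31.1 on 500 of 500 simulated intervals. Mutant Dex peaks of both libraries were joined into sites. Gene identifiers matched the RefSeq table for 67 of 67 Dex and 3189 of 3194 Dex+LPS genes. Named genes were those with a Dex site in both libraries, the 15 with most Dex+LPS-only peaks, up to 6 per list with most such peaks and list genes with a peak over the start; others, among them Frmd8, Slc39a10, Txnip and further list genes, were named after their values were seen. Values of some listed genes are not reported here. The members and all gene lists were chosen with earlier results of these data known. The NF-kB motif allows several bases at some positions. Shares carry exact 95% binomial intervals; the 1 test is an exact permutation over libraries. Alternatives covered overlap, gaps, chromosomes, libraries and distances. Python 3.11.15, pandas 2.3.3, scipy 1.17.1 and matplotlib 3.10.9 were used.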

Additional observations from a re-analysis of the deposited data

How the results depend on the processing

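The share of mutant Dex sites found in the Dex+LPS list (1.22%) was 3.66% with gaps of up to 1 kb, 0% for sites of both libraries, 0% without chromosomes 10 to 14 and 0% against mutant-specific peaks alone, and ran from 0% to 1.67% when 1 library was left out. In alternatives chosen after seeing the data it was 3.85% for sites in no wild-type Dex library and 1.45% without chromosome Y. Dex+LPS-only peaks (5719) numbered 3536 without chromosomes 10 to 14 and 2187 as mutant-specific peaks alone. Genes with both kinds of peak (33) fell to 9 when only peaks inside the gene or within 5 kb of its start counted, to 8 for sites of both libraries and to 17 without chromosomes 10 to 14; without library 1 there were 23 and without library 2 there were 19. Genes with a Dex+LPS peak only (3161) numbered 2045 and 2081 under the first and the last of these. The share of Dex+LPS-only peaks within 5 kb of a start (24.6%) was 29.4% without chromosomes 10 to 14 and 26% by the nearest RefSeq start. The smaller counts follow from fewer peaks entering, and the cause of the moved shares within 5 kb was not tested.

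The difference of -19.8 points between the genotypes ran from -20.8 to -18.8 when 1 library was left out, was -17.3 with overlaps of at least 100 bp and -17.6 without chromosomes 10 to 14, and with the replicate number as a block was -19.8 (exact sign-flip test, p = 0.5, the smallest that 2 pairs allow). With 2 pairs the labels' numbers cannot be shown to pair the libraries. Unknown depth limits every absence of a peak reported here.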

Other observations

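Under Dex+LPS, the 6 mutant peaks at circadian clock genes were shared with wild type. Of 17 listed genes, 4 had such a peak (9.36% of all protein-coding genes): Nfil3, a repressor of the clock output (3 peaks), and Per1, Per2 and Rora (1 each). The list had no mutant-specific peak, where 5.36% of all protein-coding genes had one, too few to set a list of this size apart. Per1 and Per2 also had a wild-type Dex peak. Among 18 adipogenesis and lipid genes, 4 had a Dex+LPS-only peak (12.6% of all protein-coding genes). A shared peak lay over the start of Cebpd, and Cebpb, the related factor that acts early in adipocyte formation and in inflammation, had a mutant-specific peak 167 bp inside the gene. Housekeeping genes were bound close to their starts. The constitutive chaperone gene Hspa8 had 4 mutant-specific peaks, 1 of them over the start, and peaks overlapped the starts of Ppia, Rpl4, Rps6 and Rps18. Of the 20 peaks at these 19 genes, 80.0% lay within 5 kb of the start, against 24.6% of all Dex+LPS-only peaks.

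Several of the longest runs of mutant peaks were assigned to genes outside the gene lists. Each peak was assigned to 1 gene, so a run may also lie over other genes. A listed gene under such a run would be counted here as without peaks. The longest, 22 mutant-specific peaks over 58.5 kb at A930037H05Rik and Mir1932 (chr11:119390345-119448800), held no shared peak and 2 wild-type-specific ones, and 9 more mutant-specific peaks followed at A930037H05Rik and Endov. A run at 3110039I08Rik (chr9:41580009-41595900) held 13 mutant-specific peaks and 1 shared. At Tor3a and Abl2 (chr1:156648909-156674713) there were 11 and 1, and no wild-type-specific peak. These runs were singled out after their values were seen. Of the macrophage markers 3 of 15 had a Dex+LPS-only peak (12.6% of all protein-coding genes), and Cd68 had 2 mutant-specific peaks, 1 of them over its start (chr11:69666108-69666307).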
